A study of Mus musculus with 11 samples.

Results

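Gene expression in mouse (Mus musculus) gastric corpus mucosa was compared between 2 engineered lines, GIF-DTR and ATP4B-DTR, with 3 samples each. These are 6 of the 11 samples of the series, chosen by their genotype label and not by any measured value. The other samples, 2 wild-type controls and 3 GIF/ATP4B-DTR samples, took no part in the tests and appear only as levels. DTR is the receptor for diphtheria toxin, which lets the toxin kill the cells that carry it, and the lines were built for the ablation of chief cells (GIF-DTR) or parietal cells (ATP4B-DTR). The names point to the genes for intrinsic factor and for the proton pump's beta subunit as the drivers of the receptor. The labels used here give the genotype and the tissue, and no toxin dose, time of collection, age, sex or batch. Nothing in them says that the samples came from separate animals, so the p-values measure only the spread between these samples, part of which may be technical.

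Parietal cells secrete hydrochloric acid through the proton pump, an enzyme made of the Atp4a and Atp4b subunits, and recycle potassium and chloride through channels and exchangers. Chief cells lie at the gland base and secrete pepsinogen and other digestive enzymes, and in the mouse also intrinsic factor. When parietal cells are lost, the corpus glands are known to change in other lineages too, including the mucous neck cells. In whole mucosa, fewer cells of a type and less RNA per cell cannot be told apart.

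The 6 libraries held between 20.7 and 24.1 M counts (M, mega) and between 17476 and 18149 genes with counts. A level of 3 counts, the smallest taken as seen, was between 0.123 and 0.149 CPM (counts per mega-count, scaled by TMM, the trimmed mean of M-values), and this floor covers counting error only. Pearson's r of log2 CPM across genes was between 0.969 and 0.972 within ATP4B-DTR, between 0.964 and 0.982 within GIF-DTR, and between 0.939 and 0.977 across the lines, so the ranges overlapped. The leading principal component (41.2% of the variance) placed ATP4B-DTR 1, 2 and 3 at 27.5, 53.0 and 0.847 and GIF-DTR 1, 2 and 3 at -54.0, -12.3 and -15.0. The lines thus lay on opposite sides, with GIF-DTR 1 and ATP4B-DTR 2 at the ends. ATP4B-DTR 1 was the only one of the 6 with Y-linked expression, at 122 CPM summed over Ddx3y and Eif2s3y against 0 to 0.165 CPM in the other 5, so at least in that line the libraries did not all come from the same animal. Y-linked genes were left out of every count.

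In the comparison, 54 genes were called higher in GIF-DTR and 12 lower. They were called at an adjusted p under 0.05 by edgeR's quasi-likelihood test with Benjamini-Hochberg adjustment, among 14036 genes tested. The calls made up 0.47% of the genes tested, 0.385% for the higher and 0.0855% for the lower. The higher genes included the parietal transport genes Slc26a7 and Kcne1, the hepcidin gene Hamp2 and the apolipoprotein gene Apoa1, and the lower ones included a neck cell product, a lipase relative and both subunits of the enzyme that starts glutathione synthesis. All 66 called genes were protein coding, and in all 66 the samples of the lines did not overlap. At an unadjusted p under 0.05, edgeR gave 1553 genes (11.1% of those tested), 875 of them higher in GIF-DTR. Over all genes tested, the GIF-DTR samples lay wholly above the ATP4B-DTR samples in 9.31% and wholly below in 7.83%. Among the higher genes 50 of 54 differed by at least 2-fold and 15 by at least 8-fold, and among the lower genes 11 of 12 and 2. Over all genes tested, 916 of 14036 differed by at least 2-fold. The median size of the log2 difference was 1.99 in the higher and 1.58 in the lower genes, against 0.18 over all genes tested. Large differences are called more readily, so this gap is in part fixed by the calling. The median signed difference of all genes was 0.01, and 51.7% of them had a positive sign.

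Which library was left out moved the count of calls by more than 1.5 times in every case. It was 29 without ATP4B-DTR 1, 24 without ATP4B-DTR 2, 148 without ATP4B-DTR 3, 40 without GIF-DTR 1, 40 without GIF-DTR 2 and 24 without GIF-DTR 3. The fit without ATP4B-DTR 1, which compares samples that all lack Y-linked expression, kept 26 of the 66 calls, with 25 genes higher and 4 lower in GIF-DTR. The split between directions was less uneven without ATP4B-DTR 3, with 86 higher and 62 lower, and under DESeq2, with 267 and 169. All 66 genes kept their sign in each of these fits.

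**Figure D1:**
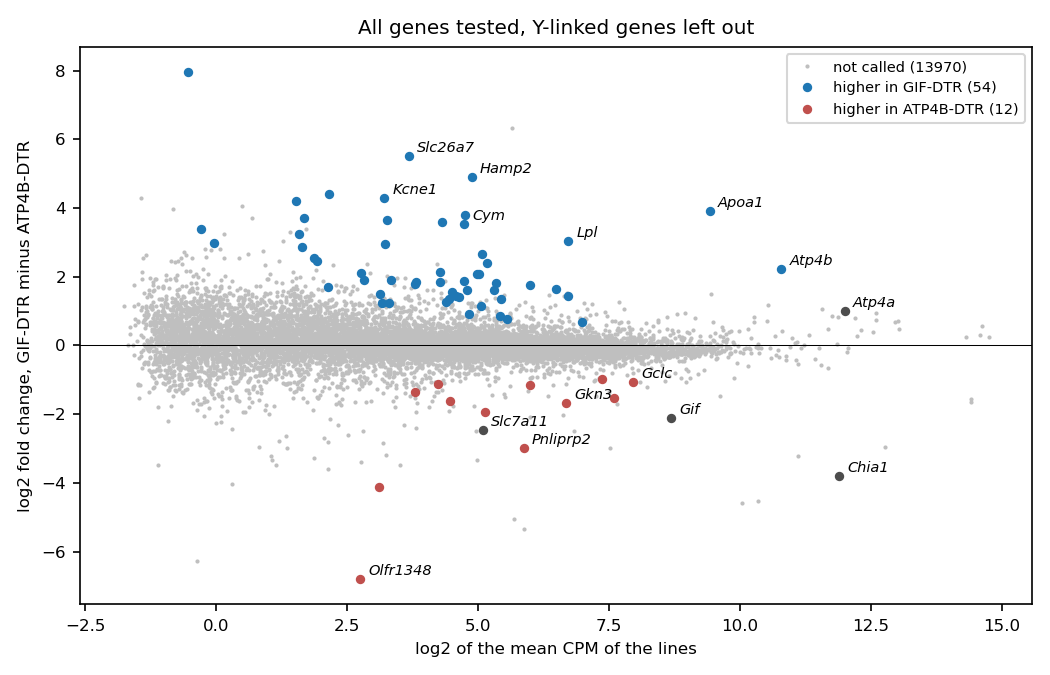
Log2 difference (GIF-DTR minus ATP4B-DTR) of each gene tested, on the vertical axis, against its mean level. The horizontal axis is the log2 of the mean CPM of the lines. Each point is 1 gene, blue and red points are called genes (54 above and 12 below the line of no difference), and dark grey points are labelled genes that were not called.

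The genes that name the lines were read first. Atp4b (chr8:13386205-13396825, minus strand, build GRCm38/mm10), the glycosylated beta subunit of the pump, was at 497, 669 and 715 CPM in ATP4B-DTR 1 to 3 and at 3639, 2233 and 2910 CPM in GIF-DTR 1 to 3. The lines did not overlap. Atp4b was higher in GIF-DTR by 2.22 ± 0.23 on the log2 scale (SE; 4.67-fold, adjusted p = 0.00595), and this call held without any 1 library. Atp4a (chr7:30712209-30725534, plus strand), the catalytic subunit, was at 2410, 2286 and 3507 CPM in ATP4B-DTR and at 5824, 5007 and 5578 CPM in GIF-DTR. All 3 GIF-DTR samples lay above, but the log2 difference of 1.00 ± 0.21 did not pass (adjusted p = 0.122). It passed without ATP4B-DTR 3 (adjusted p = 0.0317), the library with the highest Atp4a level of its line, with no filter on low counts (0.0277) and under DESeq2 (1.4e-05).

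Gif (chr19:11747554-11763447, plus strand; current symbol Cblif), which encodes intrinsic factor, the carrier of vitamin B12, was at 863, 346 and 790 CPM in ATP4B-DTR and at 68.7, 186 and 205 CPM in GIF-DTR. Every GIF-DTR sample lay below every ATP4B-DTR sample. The log2 difference of -2.12 ± 0.51 did not pass (adjusted p = 0.200), and it passed under DESeq2 (adjusted p = 0.0146), which called 3.11% of all genes. Each of these 2 genes was thus lower in every sample of the line named after it, and only for Atp4b was the difference called.

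Of the genes that the naming rule covers, Slc26a7 had the largest positive difference. Slc26a7 (chr4:14502430-14621805, minus strand), an anion exchanger of the parietal cell's basolateral membrane, was at 0.244, 0.413 and 0.953 CPM in ATP4B-DTR and at 32.9, 23.9 and 18.7 CPM in GIF-DTR. The ATP4B-DTR values stand on 5, 9 and 22 counts, close to the floor, and the GIF-DTR values on 450 counts or more. Its log2 difference was 5.51 ± 0.44 (45.7-fold, adjusted p = 0.00307) and was called in every fit that left out 1 library. Kcne1 (chr16:92345982-92359468, minus strand), a regulatory subunit of voltage-gated potassium channels, was at 1.02, 1.28 and 0.39 CPM in ATP4B-DTR and at 24.6, 13.7 and 14.5 CPM in GIF-DTR. This was a log2 difference of 4.29 ± 0.44 (19.6-fold, adjusted p = 0.00595), with GIF-DTR 1 the highest sample. The call ended without ATP4B-DTR 1 (adjusted p = 0.0501). Gm20431 was also called, a gene model number that the rule leaves out and that was singled out after its values were seen. After rounding it had 0 counts in every ATP4B-DTR sample and 20, 52 and 24 counts in GIF-DTR 1 to 3. Its expected counts were fractional in 5 of the 6 samples, so reads may be divided with another gene. It passed the filter on low counts through GIF-DTR and could not be tested with at least 10 counts in each sample. Kcng4, a modifier subunit of potassium channels, was at 0.536, 0.367 and 0.433 CPM against 7.74, 3.70 and 6.39 CPM in GIF-DTR. Its log2 difference of 3.72 ± 0.41 (adjusted p = 0.00823) was lost without ATP4B-DTR 2 (adjusted p = 0.0617). Its ATP4B-DTR values stand on 11, 8 and 10 counts, so it too passed the filter on low counts through GIF-DTR and was not tested with at least 10 counts in each sample.

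Of the 21 tested genes on a list for the parietal pump and ion transport, edgeR called 4 higher in GIF-DTR (Slc26a7, Kcne1, Esrrb and Atp4b) and 0 lower. Over all genes tested it called 0.385% higher. DESeq2 called 10 of the list higher and 1 lower, and 3.11% of all genes in either direction. Esrrb, an orphan nuclear receptor related to estrogen receptors, was at 0.585, 0.367 and 0.737 CPM in ATP4B-DTR and at 7.74, 3.95 and 4.60 CPM in GIF-DTR. Its log2 difference was 3.25 ± 0.43 (adjusted p = 0.0223), and the call ended without ATP4B-DTR 1, ATP4B-DTR 2 or GIF-DTR 3. The related receptor Esrrg, known for its part in the acid secretory programme, was at 281, 290 and 371 CPM against 225, 224 and 266 CPM, a log2 difference of -0.40 that did not pass (adjusted p = 0.352). The 2 receptors thus had differences of opposite sign. Without ATP4B-DTR 1 the list had 2 calls, and without ATP4B-DTR 3 it had 6. All 21 listed genes passed the filter on low counts, but Slc26a7, Kcne1 and Esrrb each had an ATP4B-DTR sample under 10 counts and passed it through their level in GIF-DTR. With at least 10 counts required in each sample, 18 of the list could be tested, 1 was called and the median was 0.19.

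Other members of the list with no overlap between the lines missed the threshold. Kcnj16, an inward rectifier potassium channel, had a log2 difference of 1.26 ± 0.26 (adjusted p = 0.123). Slc4a2, the basolateral chloride and bicarbonate exchanger, had one of 0.74 ± 0.13 (adjusted p = 0.0638), and its counts are fractional in all 6 samples. Slc26a9, an apical chloride channel, had one of 0.86 ± 0.28 (adjusted p = 0.324). The sodium-proton exchanger Slc9a4 and the channels Kcnj15 and Kcnq1 had log2 differences of -0.20, -0.03 and 0.13. The carbonic anhydrase gene Car2 was at 3562, 4389 and 2890 CPM in ATP4B-DTR and at 2447, 2473 and 2317 CPM in GIF-DTR, so its samples ran the other way without passing (log2 difference -0.58, adjusted p = 0.308). Over the list the median log2 difference was 0.47, with 14 of 21 positive, against 0.01 and 51.7% over all genes. The summed list was at 10256, 11767 and 11843 CPM in ATP4B-DTR and at 16842, 14909 and 15887 CPM in GIF-DTR, without overlap. Atp4a and Atp4b made up a large part of this sum, so its separation does not describe the other members as a set.

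**Figure D2:**
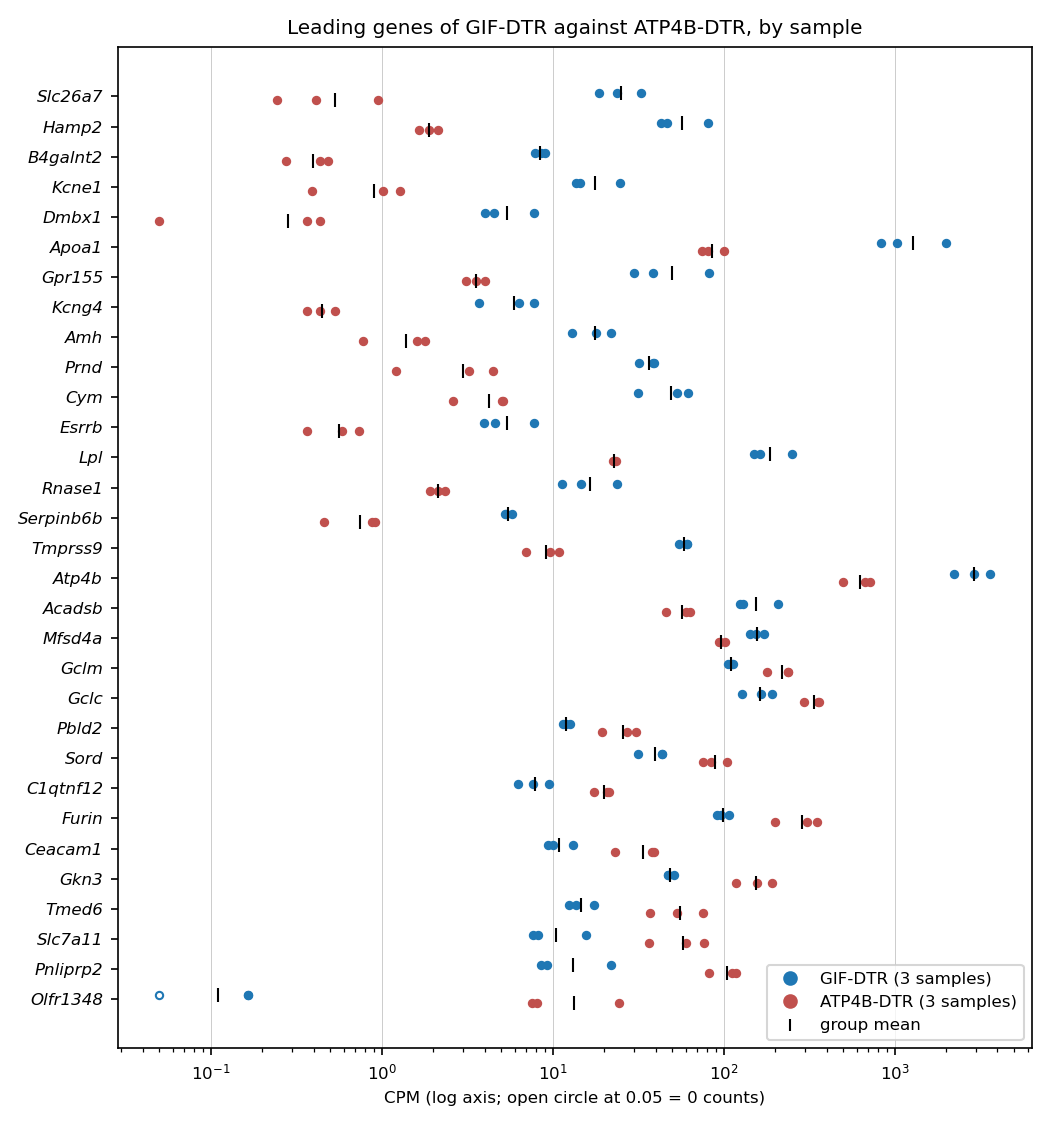
Level in CPM (log axis) of leading genes in each of the 6 samples, blue for GIF-DTR and red for ATP4B-DTR, with a tick at each line's mean and an open circle for 0 counts. Slc7a11 is the only gene shown that was not called, and in no gene shown do the 3 points of the lines overlap.

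Hamp2 (chr7:30922372-30924681, minus strand) is the mouse paralogue of Hamp, the gene of hepcidin, a peptide hormone that lowers iron export from cells. It was at 2.14, 1.88 and 1.65 CPM in ATP4B-DTR and at 81.3, 43.1 and 46.7 CPM in GIF-DTR. The log2 difference was 4.91 ± 0.30 (30.1-fold, adjusted p = 0.00126) and was called in every fit that left out 1 library. Hamp itself (chr7:30942368-30944032, minus strand) was at 0.828, 0.688 and 0.0433 CPM in ATP4B-DTR and at 1.44, 0.247 and 0.207 CPM in GIF-DTR. These values overlapped (log2 difference 0.26 ± 1.01, adjusted p = 0.952). The counts of both genes were whole numbers in all 6 samples.

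The promoters of Hamp2 and Hamp are shown because the neighbouring paralogues have nearly the same sequence there and differed so much in level. Both are RefSeq sequences on GRCm38.p6 from 250 bases before to 50 bases after the start, chr7:30924132-30924431 for Hamp2 and chr7:30943980-30944279 for Hamp, each on the minus strand. In the alignment 276 of 297 bases were identical (92.9%), and the 21 aligned bases that differ are in capitals.
Hamp2: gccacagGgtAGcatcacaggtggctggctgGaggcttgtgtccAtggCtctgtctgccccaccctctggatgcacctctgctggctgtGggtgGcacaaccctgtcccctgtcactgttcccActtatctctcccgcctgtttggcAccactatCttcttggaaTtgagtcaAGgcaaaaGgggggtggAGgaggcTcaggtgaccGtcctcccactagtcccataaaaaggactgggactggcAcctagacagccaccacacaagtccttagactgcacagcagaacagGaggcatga
Hamp: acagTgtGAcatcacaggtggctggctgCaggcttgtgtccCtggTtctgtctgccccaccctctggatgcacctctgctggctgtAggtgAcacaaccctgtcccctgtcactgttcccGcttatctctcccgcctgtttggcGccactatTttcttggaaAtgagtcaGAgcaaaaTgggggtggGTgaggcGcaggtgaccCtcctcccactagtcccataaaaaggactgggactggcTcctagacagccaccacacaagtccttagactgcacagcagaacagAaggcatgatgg

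Of 15 tested genes on a hepcidin and iron list, Hamp2 alone was called by edgeR, and DESeq2 called 2 higher. Slc40a1, which encodes the iron exporter ferroportin, was at 3.46, 1.24 and 4.42 CPM in ATP4B-DTR and at 6.497, 9.01 and 11.8 CPM in GIF-DTR. It did not pass (log2 difference 1.58 ± 0.45, adjusted p = 0.235), although the lines did not overlap. The transferrin receptor Tfrc and the ferritin chains Fth1 and Ftl1 had log2 differences of -0.45, 0.46 and -0.32, none of which passed. The list's median was -0.07, with 7 of 15 positive.

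Apoa1 and Lpl, which act in lipid transport and uptake, were called higher in GIF-DTR. Apoa1 (chr9:46228580-46230466, plus strand), the main protein of high density lipoprotein, was at 75.0, 101 and 80.6 CPM in ATP4B-DTR and at 1993, 829 and 1038 CPM in GIF-DTR. This was a log2 difference of 3.91 ± 0.35 (15.0-fold, adjusted p = 0.00576). Lpl (chr8:68880491-68907448, plus strand), the lipase that frees fatty acids from circulating triglyceride, was at 22.6, 23.6 and 22.7 CPM in ATP4B-DTR and at 250, 151 and 163 CPM in GIF-DTR. Its log2 difference was 3.03 ± 0.20 (8.18-fold, adjusted p = 0.00126), and its counts are fractional in all 6 samples, so reads may be divided with another gene. Both calls held without any 1 library, and GIF-DTR 1 had the highest level of both genes.

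Cd36, Slc2a4 and Apoa4 were also called, lay outside the rule for named genes and were chosen after their values were seen. Cd36, a fatty acid transporter, was at 9.02, 12.8 and 12.7 CPM in ATP4B-DTR and at 80.7, 46.5 and 54.5 CPM in GIF-DTR, a log2 difference of 2.39 ± 0.24 (adjusted p = 0.00595). Slc2a4, the insulin-responsive glucose transporter, was at 6.97, 6.37 and 8.15 CPM against 40.8, 25.3 and 28.1 CPM, a log2 difference of 2.13 ± 0.21 (adjusted p = 0.00576). The apolipoprotein gene Apoa4 was at 19.0, 23.0 and 16.5 CPM against 65.5, 56.1 and 56.5 CPM, a log2 difference of 1.61 ± 0.15 (adjusted p = 0.00477). Samples of GIF-DTR were higher throughout, without overlap. Acadsb, a mitochondrial dehydrogenase of branched-chain and short-chain acyl-CoA, was named by the rule and was at 63.9, 46.1 and 60.2 CPM against 208, 125 and 129 CPM (log2 difference 1.44 ± 0.22, adjusted p = 0.0466). This call ended when any library other than GIF-DTR 1 was left out, and with DESeq2's size factors (adjusted p = 0.0501).

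No member of the 2 lists for core energy metabolism was called. Of 21 genes of fatty acid oxidation and the tricarboxylic acid cycle, 0 were called, the median was -0.10 and the differences ran from -0.37 to 0.48. At an unadjusted p under 0.05 by edgeR, 0 were higher and 1 was lower. Of 16 respiratory chain genes 0 were called, 0 had an unadjusted p under 0.05, and the median was -0.05. Cox7a1, a cytochrome c oxidase subunit gene that is not on that list and was singled out after its values were seen, was at 11.4, 13.6 and 12.4 CPM in ATP4B-DTR and at 64.2, 40.6 and 52.9 CPM in GIF-DTR. It was called higher in GIF-DTR (log2 difference 2.08 ± 0.18, adjusted p = 0.00343).

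Other leading genes higher in GIF-DTR had varied roles. B4galnt2, a glycosyltransferase that makes the Sd(a) carbohydrate antigen, was at 0.487, 0.275 and 0.433 CPM in ATP4B-DTR and at 8.98, 7.94 and 8.54 CPM in GIF-DTR. This was a log2 difference of 4.39 ± 0.32 (21.0-fold, adjusted p = 0.00163), from 10, 6 and 10 counts in ATP4B-DTR, so the gene passed the filter on low counts through GIF-DTR and was not tested with at least 10 counts in each sample. Amh, the anti-Müllerian hormone gene, was at 0.780, 1.79 and 1.60 CPM against 22.1, 13.0 and 18.0 CPM, a log2 difference of 3.66 ± 0.34 (adjusted p = 0.00477). Tmprss9, a transmembrane serine protease, was at 6.97, 9.63 and 10.96 CPM against 54.5, 60.9 and 60.7 CPM, a log2 difference of 2.67 ± 0.18 (adjusted p = 0.00126). The samples did not overlap in any of the 3, and the GIF-DTR samples of Amh were farther apart than those of the other genes. Each call held without any 1 library, but that of Tmprss9 missed the threshold when the 9 samples of the 3 lines shared the fit (adjusted p = 0.0511).

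Rnase1, a secreted ribonuclease, was at 2.14, 2.34 and 1.91 CPM in ATP4B-DTR and at 23.8, 11.4 and 14.7 CPM in GIF-DTR, a log2 difference of 2.96 ± 0.30 (adjusted p = 0.00595) called without any 1 library. It also stands on a list of pancreatic acinar genes, of which it was the only 1 of 6 tested to be called, and the list's median was -1.07. That median ran from -2.48 without GIF-DTR 1 to -0.23 without ATP4B-DTR 2. Ifi27, an interferon-inducible gene outside the naming rule that was chosen after its values were seen, was at 46.3, 44.0 and 39.4 CPM against 142, 117 and 149 CPM, a log2 difference of 1.65 ± 0.13 (adjusted p = 0.00266). GIF-DTR samples were higher in both genes without overlap. On a separate list of 12 interferon response genes edgeR called 0, with 12 of 12 positive and a median of 0.59. DESeq2 called 1 of them higher, and so did edgeR without ATP4B-DTR 3. The median of that list was between 0.25 and 0.93 when 1 library was left out, lowest without ATP4B-DTR 1.

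Several leading calls rested on particular libraries. Gpr155, a cholesterol-binding lysosomal membrane protein, was at 3.12, 3.58 and 4.03 CPM against 81.9, 29.8 and 38.8 CPM (log2 difference 3.80 ± 0.41, adjusted p = 0.0175). The highest adjusted p with 1 library left out was 0.140, and the call ended without ATP4B-DTR 1 or ATP4B-DTR 2. Prnd, the prion-like doppel gene, had a log2 difference of 3.60 ± 0.39 (adjusted p = 0.0146), lost without ATP4B-DTR 2, GIF-DTR 1 or GIF-DTR 3 and with the 9 samples of the 3 lines in the fit (adjusted p = 0.0540). Dmbx1, a homeobox gene, was at 0.0487, 0.367 and 0.433 CPM against 7.74, 4.03 and 4.56 CPM (log2 difference 4.22 ± 0.61, adjusted p = 0.0321), and was called only without ATP4B-DTR 1 or ATP4B-DTR 3 among the fits that left out 1 library. It was also lost with the 9 samples in the fit (adjusted p = 0.0556). With 1, 8 and 10 counts in ATP4B-DTR it entered the test through GIF-DTR, and it was not tested with at least 10 counts in each sample. Mfsd4a, a predicted solute transporter with the smallest difference of the called genes that the rule named, 0.69 ± 0.11 (adjusted p = 0.0488), was called in 0 of those 6 fits and in neither fit shared with other groups (adjusted p up to 0.113).

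Cym and Serpinb6b were called higher in GIF-DTR and also had GIF-DTR levels above the control means, unlike most of the called genes. Cym (chr3:107211293-107221732, minus strand), which encodes the milk-clotting protease chymosin, was at 5.12, 5.04 and 2.60 CPM in ATP4B-DTR and at 31.7, 61.6 and 53.7 CPM in GIF-DTR. Its log2 difference was 3.53 ± 0.34 (11.6-fold, adjusted p = 0.00595). The control mean was 2.23 CPM, and the call ended without ATP4B-DTR 2 (adjusted p = 0.0521) and when other groups shared the fit (adjusted p up to 0.204). Serpinb6b, a serine protease inhibitor, was at 0.877, 0.459 and 0.910 CPM in ATP4B-DTR, at 5.26, 5.31 and 5.80 CPM in GIF-DTR and at a mean of 0.487 CPM in control. Between the lines its log2 difference was 2.86 ± 0.36 (adjusted p = 0.0183), lost without ATP4B-DTR 1, ATP4B-DTR 2, GIF-DTR 2 or GIF-DTR 3. No test was made against the controls here.

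Of the chief cell list, Pnliprp2 was called lower in GIF-DTR. Pnliprp2 (chr19:58759719-58777534, plus strand), a relative of pancreatic lipase, was at 118, 82.3 and 112 CPM in ATP4B-DTR and at 21.9, 8.55 and 9.25 CPM in GIF-DTR. Its log2 difference was -2.98 ± 0.39 (7.91-fold lower, adjusted p = 0.0371). It was the only gene of 9 tested on the chief cell list that edgeR called. The call ended without ATP4B-DTR 1, ATP4B-DTR 2, GIF-DTR 2 or GIF-DTR 3 (adjusted p up to 0.146). It also ended when all 11 samples shared the fit (adjusted p = 0.125), with the 9 samples of the 3 lines (0.0511) and with no filter on low counts (0.120). The summed pancreatic acinar list was at 62.2, 121 and 89.5 CPM in ATP4B-DTR and at 79.8, 64.7 and 72.3 CPM in GIF-DTR, and 6 of its 12 genes were too low to test. The trypsinogen gene Prss2 was at 0 to 0.0496 CPM in 5 samples and at 2.02 CPM in ATP4B-DTR 2, whose Pnliprp2 was the lowest of its line.

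The other 8 tested genes of the chief cell list did not pass by edgeR. DESeq2 called 3 genes of the list lower, Pnliprp2 and Gif among them. Chia1, an acidic chitinase, was at 12263, 2791 and 6292 CPM in ATP4B-DTR and at 897, 312 and 332 CPM in GIF-DTR (log2 difference -3.79 ± 0.69, adjusted p = 0.102). Clps, the colipase gene, was at 20647, 7548 and 8935 CPM against 3503, 674 and 583 CPM (log2 difference -2.96 ± 0.83, adjusted p = 0.264). Neither gene overlapped between the lines. Pgc, the pepsinogen C gene, was at 51748, 14602 and 32178 CPM against 22689, 4830 and 5783 CPM, so that GIF-DTR 1 lay above ATP4B-DTR 2 (log2 difference -1.56 ± 0.70, adjusted p = 0.475). Bhlha15, the transcription factor Mist1 of secretory cells, also overlapped, at 21.4, 2.75 and 10.9 CPM against 0.794, 8.60 and 1.91 CPM. On the list 8 of 9 genes were negative and the median was -1.62. The median ran from -2.28 without GIF-DTR 2 to -1.09 without ATP4B-DTR 1, and without GIF-DTR 1 the list had 3 calls. The summed list was at 86011, 25729 and 48645 CPM in ATP4B-DTR and at 27493, 6311 and 7178 CPM in GIF-DTR, so that GIF-DTR 1 lay above ATP4B-DTR 2.

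Gkn3 (chr6:87383256-87388935, minus strand), a gastrokine of mucous neck cells, was at 192, 118 and 158 CPM in ATP4B-DTR and at 51.0, 47.1 and 47.2 CPM in GIF-DTR. The GIF-DTR values were nearly the same as each other and all lay below ATP4B-DTR. This was a log2 difference of -1.68 ± 0.18 (3.21-fold lower, adjusted p = 0.00595) and held without any 1 library, but it was not called when other groups shared the fit (adjusted p up to 0.379). Of the 7 neck cell genes tested it was the only one called. The mucin gene Muc6 was at 29.3, 94.6 and 80.6 CPM against 41.3, 20.6 and 28.4 CPM and overlapped (log2 difference -1.18, adjusted p = 0.417), while the trefoil factor gene Tff2 had a log2 difference of 0.48 (adjusted p = 0.679).

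Further genes were called lower in GIF-DTR. Furin (chr7:80388585-80405436, minus strand), a protease that activates precursor proteins, was at 309, 201 and 354 CPM in ATP4B-DTR and at 97.2, 91.8 and 107 CPM in GIF-DTR. Its log2 difference was -1.54 ± 0.20 (adjusted p = 0.0223), lost without ATP4B-DTR 1 or any 1 GIF-DTR library. Tmed6, a cargo receptor of the early secretory pathway, was at 75.9, 36.9 and 53.1 CPM against 17.5, 13.8 and 12.5 CPM (log2 difference -1.92 ± 0.27, adjusted p = 0.0321), lost without any 1 GIF-DTR library. Both genes were highest in a different ATP4B-DTR sample, ATP4B-DTR 3 for Furin and ATP4B-DTR 1 for Tmed6. Ceacam1, a cell adhesion receptor, was at 38.0, 39.3 and 23.3 CPM against 10.02, 13.2 and 9.37 CPM (log2 difference -1.62 ± 0.23, adjusted p = 0.0321), and its counts are fractional in all 6 samples. Its call ended without ATP4B-DTR 1, ATP4B-DTR 2, GIF-DTR 1 or GIF-DTR 3 (adjusted p up to 0.144), and with the 9 samples of the 3 lines in the fit (adjusted p = 0.0533). Sord, the sorbitol dehydrogenase gene, was at 75.9, 105 and 84.5 CPM against 31.4, 43.6 and 43.8 CPM (log2 difference -1.16 ± 0.17, adjusted p = 0.0371), and its call ended with any 1 library left out and when other groups shared the fit (adjusted p up to 0.0808). C1qtnf12, a secreted adipokine gene, and Pbld2 had log2 differences of -1.34 ± 0.19 and -1.11 ± 0.18 (adjusted p = 0.0321 and 0.0498). The call of C1qtnf12 ended without ATP4B-DTR 1, ATP4B-DTR 2, GIF-DTR 1 or GIF-DTR 3 and when other groups shared the fit (adjusted p up to 0.292). That of Pbld2 ended when any library other than ATP4B-DTR 3 was left out (adjusted p up to 0.176), when other groups shared the fit (up to 0.088), and with DESeq2's size factors, at least 10 counts in each sample or no robust moderation (0.0524, 0.0539 and 0.0577).

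The lowest log2 difference of all genes tested was that of Olfr1348, an olfactory receptor gene, at 24.6, 7.57 and 8.10 CPM in ATP4B-DTR and at 0, 0.165 and 0.166 CPM in GIF-DTR. The GIF-DTR samples held 0, 4 and 4 counts, so the fitted log2 difference of -6.79 ± 0.80 (adjusted p = 0.0195) depends on the prior count of the fit. The gene passed the filter on low counts through ATP4B-DTR and was not tested with at least 10 counts in each sample. The call ended without any 1 GIF-DTR library. Its control mean was 5.13 CPM.

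Both subunits of the enzyme that starts glutathione synthesis were lower in GIF-DTR. Glutathione, the main soluble antioxidant of cells, is made from cysteine, which the exchanger Slc7a11 supplies as cystine, by a ligase of a catalytic subunit (Gclc) and a modifier subunit (Gclm). Gclc (chr9:77754535-77794485, plus strand) was at 364, 357 and 294 CPM in ATP4B-DTR and at 129, 192 and 167 CPM in GIF-DTR. Gclm (chr3:122245557-122270732, plus strand) was at 237, 239 and 181 CPM against 107, 111 and 114 CPM. In both genes every GIF-DTR sample lay below every ATP4B-DTR sample. The log2 difference was -1.06 ± 0.17 for Gclc (2.08-fold lower, adjusted p = 0.0466) and -0.98 ± 0.13 for Gclm (1.98-fold lower, adjusted p = 0.0249). Both calls ended when any library other than ATP4B-DTR 3 was left out, with an adjusted p of up to 0.174 for Gclc and 0.122 for Gclm. The call of Gclc also ended with no robust moderation (adjusted p = 0.0554), and the counts of Gclm are fractional in all 6 samples.

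Slc7a11 (chr3:49892526-50443614, minus strand) was at 59.9, 77.2 and 36.5 CPM in ATP4B-DTR and at 8.23, 15.6 and 7.63 CPM in GIF-DTR. The lines did not overlap, but the log2 difference of -2.46 ± 0.37 (5.51-fold lower) narrowly missed the threshold (adjusted p = 0.0522), and its counts are fractional in all 6 samples. It passed when all 11 samples (adjusted p = 0.0193) or the 9 of the 3 lines (0.0186) shared the fit, with at least 10 counts in each sample (0.0367), with no robust moderation (0.0378) and under DESeq2 (2.5e-11). Among the fits that left out 1 library it passed without ATP4B-DTR 3 (adjusted p = 0.0219) or GIF-DTR 2 (0.0284), and it did not pass in the other 4 (0.158 to 0.192). With no filter on low counts it was 0.145. Srxn1, the sulfiredoxin gene that repairs oxidised peroxiredoxins, was at 130, 151 and 135 CPM against 60.8, 91.2 and 63.9 CPM (log2 difference -0.95 ± 0.17, adjusted p = 0.0585). Hmox1, the haem oxygenase gene, had a log2 difference of -1.01 ± 0.24 (adjusted p = 0.158), and Nqo1, a quinone reductase, had one of 0.14 ± 0.24 (adjusted p = 0.886). Of the 14 genes of this list 2 were called lower and 0 higher, 11 were negative, and 8 were lower in GIF-DTR without overlap. Over all genes tested 0.0855% were called lower, 51.7% were positive and 7.83% lay wholly below. The list's median was -0.40. A list of 12 amino acid stress genes, which shares the theme of amino acid supply, had 0 calls by edgeR, 10 negative members and a median of -0.19. DESeq2 called 1 of them lower.

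Promoters of this group were searched on both strands for TGACNNNGC or TGAGNNNGC, the core letters of the antioxidant response element. The 11 list genes found in the RefSeq table have 19 promoters there, of which 8 held a match (42.1%), beside 27.8% of all 32851 mouse promoters in the table. The 8 belong to 6 genes, and some genes have several promoters that overlap or lie close together. Several of the matching promoters are those of Ggt1, and that of Nqo1 held no match. Gclc, Hmox1 and Gsr had no promoter in the table and were not searched. The promoters of Gclm (modifier subunit) and Slc7a11 are shown with the matching letters in capitals, which in both lie on the strand opposite the gene. They span chr3:122245307-122245606 (plus strand) and chr3:50443564-50443863 (minus strand) on GRCm38.p6, and the match begins 134 bases before the start of Gclm and 97 bases before that of Slc7a11. A match of letters is a description of the sequence.
Gclm: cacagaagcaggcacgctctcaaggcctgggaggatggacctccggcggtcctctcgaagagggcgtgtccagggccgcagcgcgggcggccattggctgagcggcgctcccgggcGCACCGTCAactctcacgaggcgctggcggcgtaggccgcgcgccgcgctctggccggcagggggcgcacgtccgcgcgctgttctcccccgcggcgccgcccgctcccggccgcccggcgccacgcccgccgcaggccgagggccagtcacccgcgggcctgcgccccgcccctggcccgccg
Slc7a11: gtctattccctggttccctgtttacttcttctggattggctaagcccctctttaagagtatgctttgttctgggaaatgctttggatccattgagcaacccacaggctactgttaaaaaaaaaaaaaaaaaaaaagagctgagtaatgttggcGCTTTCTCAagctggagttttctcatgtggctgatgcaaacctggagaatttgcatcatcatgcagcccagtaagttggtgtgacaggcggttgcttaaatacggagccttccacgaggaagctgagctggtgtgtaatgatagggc

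**Figure D3:**
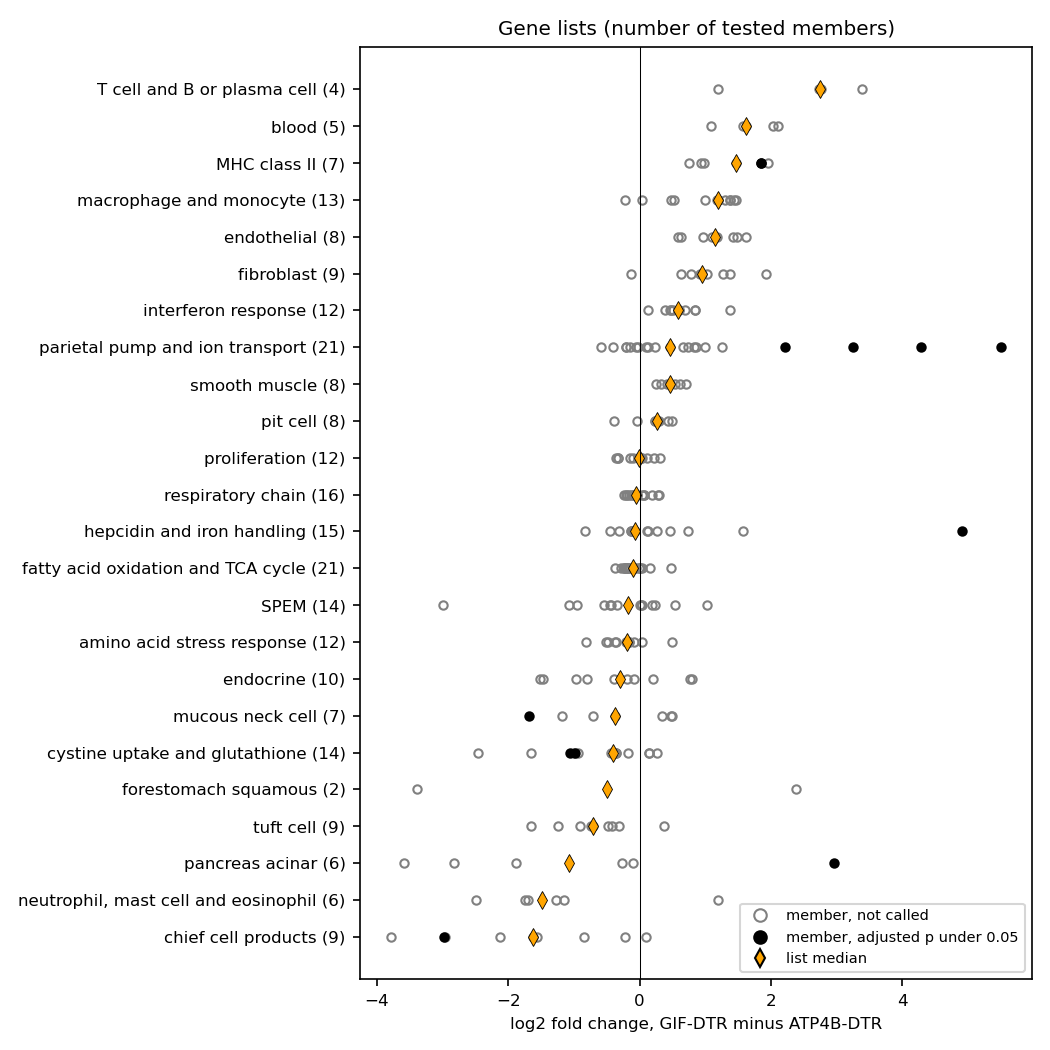
Log2 difference (GIF-DTR minus ATP4B-DTR) of every tested gene of each list, with 1 row per list, open circles for genes not called, black points for called genes and a diamond at the list's median. The macrophage, MHC class II, endothelial and blood lists lie mostly above 0, the chief cell and tuft cell lists mostly below, and the proliferation list is centred at 0.

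A pair of antigen-presenting genes was higher in GIF-DTR. H2-Aa and H2-Ab1, which encode the chains of a class II major histocompatibility complex molecule, were the 2 genes of 7 tested on the MHC class II list that edgeR called. Over all genes tested 0.385% were called higher. DESeq2 called 4 of the 7 higher. H2-Aa was at 4.78, 5.23 and 8.32 CPM in ATP4B-DTR and at 24.6, 14.9 and 26.6 CPM in GIF-DTR (log2 difference 1.85 ± 0.29, adjusted p = 0.0466). H2-Ab1 was at 8.04, 7.20 and 9.97 CPM against 36.5, 18.5 and 35.6 CPM (log2 difference 1.84 ± 0.27, adjusted p = 0.0383). GIF-DTR 2 was the lowest sample of its line for both. H2-Eb1 and Cd74, the invariant chain gene, had log2 differences of 1.96 ± 0.36 and 1.47 ± 0.36 that did not pass (adjusted p = 0.0775 and 0.200). All 7 members were positive, with a median of 1.47, where 51.7% of all genes tested were positive. Neither gene was called when all 11 samples shared the fit (adjusted p = 0.364 for H2-Aa and 0.393 for H2-Ab1) or when the 9 samples of the 3 lines did (0.0874 and 0.108). The call of H2-Aa also ended with at least 10 counts in each sample (adjusted p = 0.0503) and with no robust moderation (0.0505). The list had 0 calls without ATP4B-DTR 1, without ATP4B-DTR 2, without GIF-DTR 1 or without GIF-DTR 3, and all 7 stayed positive in each fit that left out 1 library.

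On the macrophage and monocyte list edgeR called 0 of 13 tested genes, and DESeq2 called 5 higher. Of the 13, 12 were positive, 9 had an unadjusted p under 0.05 by edgeR and 8 did not overlap between the lines. Over all genes tested the shares were 51.7% positive, 11.1% under that p in either direction and 9.31% wholly above. The complement gene C1qa was at 6.43, 4.91 and 13.0 CPM in ATP4B-DTR and at 19.9, 21.3 and 22.3 CPM in GIF-DTR (log2 difference 1.38 ± 0.33, adjusted p = 0.170). Csf1r, the receptor that macrophages need for survival, had a log2 difference of 1.20 ± 0.33 (adjusted p = 0.218), and Adgre1, the F4/80 antigen gene, one of 0.99 ± 0.34 (adjusted p = 0.324). ATP4B-DTR 3 was the highest of its line for C1qa. The list's median was 1.19, and without ATP4B-DTR 3 it was 1.44 with 5 calls. The summed list was at 83.9, 78.0 and 137 CPM in ATP4B-DTR and at 163, 209 and 252 CPM in GIF-DTR. T and B cell genes were at or near 0 in all 6 samples for most of the list: 4 of 12 could be tested, edgeR called 0 and DESeq2 called 1 higher. The immunoglobulin gene Igha was at 15.6 CPM in GIF-DTR 1 and at 0.275 to 1.78 CPM in the other 5 samples.

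No member of the endothelial, blood, smooth muscle and fibroblast lists was called by edgeR, and their summed levels were highest in GIF-DTR 1. DESeq2, which called 3.11% of all genes, called 4 of the 5 blood genes and 1 of the 8 endothelial genes higher. The summed endothelial list was at 22.0, 12.5 and 33.1 CPM in ATP4B-DTR and at 87.3, 32.3 and 45.5 CPM in GIF-DTR, and the summed haemoglobin and red cell list at 15.3, 22.3 and 13.1 CPM against 99.6, 41.5 and 35.8 CPM. The summed smooth muscle list was at 927, 575 and 1335 CPM against 2765, 746 and 478 CPM, and the fibroblast list at 317, 195 and 386 CPM against 858, 278.5 and 404 CPM. Apart from GIF-DTR 1, the GIF-DTR samples overlapped ATP4B-DTR on all but the blood list. The medians of the endothelial, blood, smooth muscle and fibroblast lists were 1.14, 1.62, 0.47 and 0.95. Without GIF-DTR 1 they were 0.53, 1.13, -0.63 and 0.32, so the smooth muscle list turned its sign, while the macrophage and MHC class II medians were 1.27 and 1.32. The part of these cell types in the calls was not tested.

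**Figure D4:**
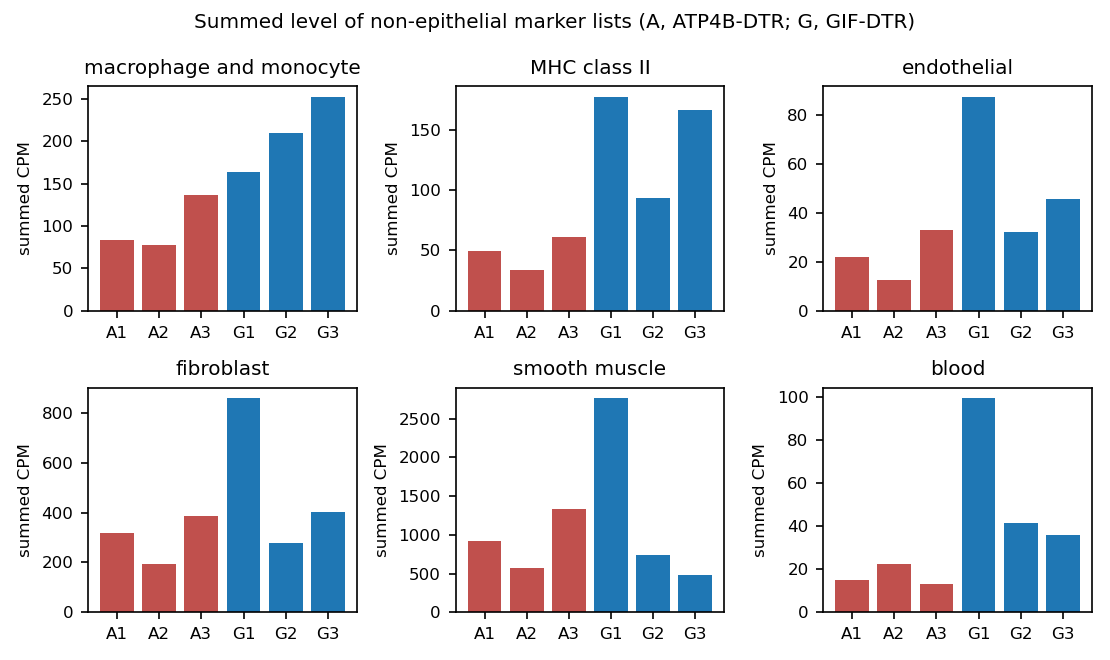
Summed level in CPM of 6 marker lists in each of the 6 samples, with 1 bar per sample, red for ATP4B-DTR and blue for GIF-DTR. GIF-DTR 1 is highest for the smooth muscle, fibroblast, endothelial and blood lists, and all GIF-DTR bars exceed all ATP4B-DTR bars on the macrophage, MHC class II and blood lists.

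Other lineages gave no calls in the edgeR fit of the 6 samples. Of 14 genes of spasmolytic polypeptide-expressing metaplasia (SPEM), a mucous lineage that appears in injured glands, 0 were called, with 7 positive and a median of -0.17. Pigr, the receptor that carries immunoglobulin A across epithelium, was at 566, 287 and 122 CPM in ATP4B-DTR and at 30.6, 64.4 and 26.9 CPM in GIF-DTR, a log2 difference of -3.00 ± 0.65 (adjusted p = 0.177). The samples did not overlap, but those of ATP4B-DTR spread widely. Clu, which encodes clusterin, overlapped (log2 difference 0.23, adjusted p = 0.909). The 8 pit cell genes, the 10 endocrine genes and the 12 proliferation genes had medians of 0.26, -0.29 and -0.0041. At an unadjusted p under 0.05 by edgeR the pit and proliferation lists had 0 genes in either direction. On the tuft cell list 8 of 9 genes were negative with a median of -0.71. Gnat3, the taste G protein subunit of tuft cells, was at 10.1, 11.1 and 7.45 CPM against 1.74, 4.48 and 2.82 CPM (log2 difference -1.66 ± 0.36, adjusted p = 0.122), and Dclk1, a kinase that marks tuft cells, was at 20.1, 26.8 and 18.7 CPM against 11.7, 13.3 and 9.99 CPM (log2 difference -0.91 ± 0.19, adjusted p = 0.102). Both were lower in every GIF-DTR sample. DESeq2 called 3 SPEM genes and 3 tuft cell genes lower, and edgeR with no filter on low counts called 1 and 2. Without ATP4B-DTR 3, edgeR called 2 SPEM genes lower, and with all 11 samples in the fit it called 1 tuft cell gene lower.

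The levels of the called genes in the 2 groups outside the comparison were read on the same scale, as a description with no test. Of the 54 genes higher in GIF-DTR, the control mean was nearer the GIF-DTR mean for 45 and above both lines for 41. The GIF/ATP4B-DTR mean was nearer ATP4B-DTR for 47 of the 54 and below both lines for 43. Over all genes tested it was nearer ATP4B-DTR for 61.1%, and the control mean was nearer ATP4B-DTR for 43.6%. The shares of all genes above or below both lines were not computed, so the counts of 41 and 43 stand without a background. Slc26a7 had a mean of 78.7 CPM in control, Hamp2 102 CPM, Apoa1 1713 CPM and Lpl 571 CPM. In GIF/ATP4B-DTR the means of these genes were 0.266, 1.59, 65.5 and 18.9 CPM, at or below those of ATP4B-DTR. Kcne1 differed, with a mean of 1.89 CPM in GIF/ATP4B-DTR, above each ATP4B-DTR sample.

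Of the 12 genes lower in GIF-DTR, the GIF/ATP4B-DTR mean was nearer GIF-DTR for 8 and nearer ATP4B-DTR for 4, namely Gclc, Gclm, Ceacam1 and C1qtnf12. For Gclc the means were 149 CPM in control and 350 CPM in GIF/ATP4B-DTR, and for Gclm 100 and 224 CPM, so that the control lay by GIF-DTR and the combined line by ATP4B-DTR. For Gkn3 the means were 20.0 CPM in control and 64.2 CPM in GIF/ATP4B-DTR. For Pnliprp2 and Furin the control means were 202 and 852 CPM, above both lines, and those of GIF/ATP4B-DTR were 27.8 and 73.4 CPM.

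**Figure D5:**
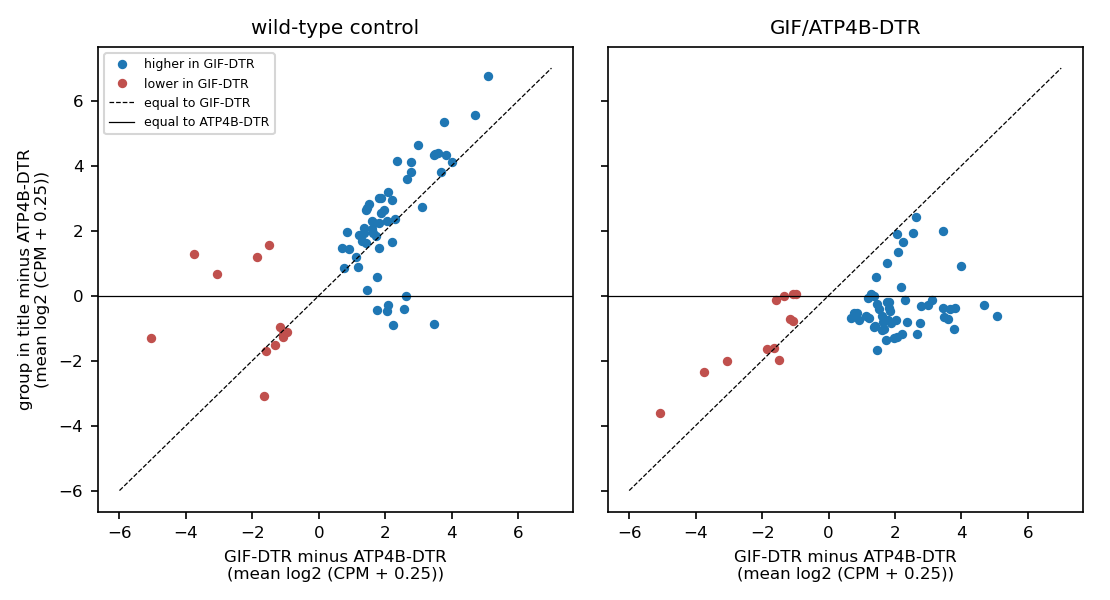
Called genes, 1 point each: mean log2 (CPM + 0.25) of control (left) or GIF/ATP4B-DTR (right) minus that of ATP4B-DTR, against GIF-DTR minus ATP4B-DTR, blue for genes higher and red for genes lower in GIF-DTR. The dashed line marks levels equal to GIF-DTR and the horizontal line levels equal to ATP4B-DTR. For 47 of the 54 genes higher in GIF-DTR the GIF/ATP4B-DTR mean lies nearer ATP4B-DTR, and for 45 of the 54 the control mean lies nearer GIF-DTR.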

How the data were processed

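Column-purified RNA went into stranded mRNA libraries, per the labels' protocols. The authors deposited expected counts per gene for all 11 samples (34866 rows, 99.2% with a symbol), and 30.7% of nonzero entries are fractional. The genome build was mm10, per the submitters' processing notes, and the aligner and quantifier are not given in the sources used here. Expected counts were rounded, and libraries were scaled by TMM in edgeR 4.0.16 under R 4.3.3. The filterByExpr function, applied to the 6 samples, kept 14041 genes, among them 5 Y-linked ones that were left out of counts. The quasi-likelihood test with robust moderation gave p-values adjusted by Benjamini-Hochberg, and the SE is the log2 fold change divided by the square root of F. The common biological coefficient of variation was 24.0%, with 4 residual degrees of freedom. CPM of the other 5 samples are on the same scale, and nearness used mean log2 (CPM + 0.25).

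Named genes were the targeted genes, Slc26a7, Hamp2, Kcne1 and Slc7a11, the members of 24 gene lists, and, among called genes without overlap and with a mean of at least 2 CPM in the higher line, the 16 highest and 10 lowest log2 fold changes and the 5 most abundant in each direction. Gene model numbers were left out of that rule. The comparison, the lists and the named genes were chosen with earlier results of these data known. Coordinates are from GENCODE M21 (GRCm38) and promoters from RefSeq, aligned with Biopython 1.88. On simulated counts over 14041 genes with 200 changed 4-fold, edgeR recovered 85% with 4.49% of calls false, and DESeq2 1.42.0 recovered 91.5% with 19.7% false. Alternatives were another scaling, filter, test or set of samples in the fit, and leaving out each sample. The replicate numbers of both lines are in the order of deposit and pair no samples.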

Additional observations from a re-analysis of the deposited data

How the results depend on the processing

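The 66 calls (54 higher and 12 lower in GIF-DTR) became 436 (267 and 169) under the DESeq2 Wald test and 170 (126 and 44) with no filter on low counts, and called list members, 12 in the edgeR fit reported above, became 48 and 22. Leaving out 1 library gave 24 to 148 calls, 19 to 86 higher and 1 to 62 lower, with 14 to 27 of the 30 leading genes and 5 to 25 list members called. With the 9 samples of the 3 lines in the fit, 19 of the 30 leading genes were called. The share of calls higher in GIF-DTR was 81.8%, and it was 61.2% under DESeq2 and 58.1% without ATP4B-DTR 3. DESeq2's size factors, TMM without the 50 most abundant genes, at least 10 counts in each sample, no robust moderation and all 11 samples in the fit gave 51 to 73 calls. Of the 66 calls, 44 were among the 73 with all 11 samples in the fit and 41 among the 58 with the 9 samples. The 66 called genes kept their sign in every fit that tested them (56 of them with at least 10 counts in each sample). Of the 30 leading genes, 10 were called in every fit that left out 1 library. The causes of these shifts were not tested. No paired analysis was possible because the replicate numbers of the lines are in the order of deposit and mark no shared animal, litter or day. With 3 samples a line, 1 library can decide a call, and genes at a few counts are limited by depth.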

Other observations

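Several called genes outside the rule for named genes were singled out after their values were seen. Thbs1, which encodes the matrix protein thrombospondin 1, was at 14.5, 10.2 and 11.6 CPM in ATP4B-DTR and at 59.6, 44.0 and 49.3 CPM in GIF-DTR (edgeR log2 difference 2.08 ± 0.18, adjusted p = 0.00307). Its control samples lay far apart, at 2.86 and 24.2 CPM (mean 13.5 CPM), and its GIF/ATP4B-DTR mean was 47.6 CPM. Serpinb9, an inhibitor of granzyme B, was at 7.41, 5.41 and 5.89 CPM against 21.2, 19.1 and 24.7 CPM (log2 difference 1.80 ± 0.18, adjusted p = 0.00595), with means of 4.60 CPM in control and 12.8 CPM in GIF/ATP4B-DTR. Ffar4, a receptor for long-chain fatty acids, was at 1.61, 1.10 and 0.823 CPM against 4.71, 8.02 and 6.55 CPM (log2 difference 2.45 ± 0.37, adjusted p = 0.0371), with means of 0.499 and 4.27 CPM. These genes, with Cym, Serpinb6b, Ubd and Gm20431, are the 7 of the 54 higher genes whose GIF/ATP4B-DTR mean lay nearer GIF-DTR. In GIF/ATP4B-DTR the samples of Cym (65.2, 13.2 and 5.55 CPM) and of Gm20431 (0, 1.93 and 4.06 CPM) were far apart, so their means do not describe each sample.

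Some called genes are neighbours. Prnp (chr2:131909928-131938429, plus strand), the prion protein gene, was at 16.3, 14.0 and 23.7 CPM in ATP4B-DTR and at 87.9, 53.3 and 50.05 CPM in GIF-DTR (log2 difference 1.82 ± 0.28, adjusted p = 0.0466), and Prnd starts downstream of it on the same strand (chr2:131950861-131956130). Counts were fractional in 4 of the 6 samples for Prnp and in 3 for Prnd, so reads of these genes may be divided with other genes. Apoa4 (chr9:46240696-46243459, plus strand) and Apoa1 (chr9:46228580-46230466, plus strand) are likewise neighbours, and their counts were fractional in 0 of the 6 samples. On the neutrophil, mast cell and eosinophil list 6 genes were tested and edgeR called 0, with 5 negative and a median of -1.49. DESeq2, edgeR with no filter on low counts and edgeR with all 11 samples in the fit each called 1 gene of the list higher. The mast cell protease gene Mcpt1 was at 87.6, 66.5 and 4.98 CPM in ATP4B-DTR and at 17.8, 3.41 and 7.42 CPM in GIF-DTR (log2 difference -2.48 ± 1.14, adjusted p = 0.513), so the high values were those of ATP4B-DTR 1 and 2. Kit, the stem cell factor receptor gene on the same list, ran in the opposite direction without overlap, at 15.6, 9.40 and 12.6 CPM against 35.2, 23.4 and 27.7 CPM (log2 difference 1.20 ± 0.22, adjusted p = 0.0733).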
